A study of Mus musculus with 28 samples.

Results

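Sertoli cells are the somatic cells of the seminiferous tubule. They enclose the germ cells at every stage and form the blood-testis barrier with their tight junctions, and they answer follicle-stimulating hormone and androgen with secreted factors that act on germ cells and on other somatic cells. Their fate is set in the fetal gonad by *Sox9*, and several of their genes, among them *Inha*, *Amh* and *Fshr*, are also used by the granulosa cells of the ovary, which descend from the same kind of gonadal precursor. The 10 genes described here were given by name: the transcription factor genes *Sox9*, *Gata4* and *Wt1*, the homeobox gene *Rhox5*, the hormone and ligand genes *Inha*, *Amh*, *Dhh* and *Gdnf*, the receptor gene *Fshr* and the tight junction gene *Cldn11*. They are 10 of the 37206 genes into which the transcript rows of the table were summed.

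The study asked how mouse gonads develop without *Csmd1*, a complement regulator. From it, 28 RNA-seq libraries of 13 mice are used here, in RPKM (mapped reads per kilobase of transcript, scaled to the depth of the library). They are 1 wildtype ovary, 7 whole testes (2 wildtype, 5 knockout) and 20 libraries of testis cells sorted by Hoechst staining from 8 mice. In the knockout, exon 1 and part of intron 1 of *Csmd1* are replaced by a lacZ and neomycin cassette in every cell. The labels give the strain as C57BL/6, while the methods describe a mixed background with 129SvEvBrd. The gates are R5 (spermatogonia, 2 wildtype and 2 knockout mice), R7 (primary spermatocytes, 2 and 4), R6 (secondary spermatocytes, 2 and 3) and R4 (spermatids, 3 and 2). Males were sorted at about 40 days of age according to the methods, an age that the sample list at hand states for mice 178 and 351, and no treatment is named. The study describes whole testes of a sexually immature and of a mature age, and the age of the other mice is not given in the sources used here. The mouse is the replicate. Mice 178, 648 and 286 gave a whole testis from one side and sorted cells from the other.

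Depth was estimated at 23800000 to 61640000 mapped reads per library, except in the R7 library of knockout mouse 613, whose values do not fall on whole reads. That library is shown apart and enters no test unless named. The labels of the gates were set beside marker genes, not all of which bore them out. The spermatogonial gene *Kit* was 18.2 to 183 RPKM in R5 and at most 15.6 RPKM in every library of the other gates. Another spermatogonial gene, *Id4*, had a lower median in R5 (2.51 RPKM) than in R7 (8.31 RPKM). Of the spermatocyte genes, *Piwil1* was 121 to 437 RPKM in R7 and 5.41 to 48.9 RPKM in R5. *Sycp1* and *Dmc1* had higher medians in R5 (139 and 10.4 RPKM) than in R7 (41.0 and 1.32 RPKM). R5 is thus not shown to hold spermatogonia alone. The spermatid gene *Prm1* went against the labels in 3 sorted libraries: it was 1402 RPKM in the R5 library of mouse 544, and 2.14 and 0.579 RPKM in the R4 libraries of mice 286 and 648, against 930 to 2579 RPKM in the other R4 libraries. It also separated the whole testes, at 603 to 1922 RPKM in mice 178, 214 and 273 and 0.439 to 1.16 RPKM in mice 648, 269, 286 and 308. Low *Prm1* in the R4 libraries of mice 286 and 648 thus went with low *Prm1* in the whole testis of the same mice. The spermatid genes *Prm2*, *Tnp1* and *Tnp2* were as low as 2.01, 5.68 and 2.39 RPKM in R4. *Acrv1*, another spermatid gene, was 47.9 to 173 RPKM over all R4 libraries, against 2.35 to 13.7 RPKM in R7. *Acr* was 94.6 to 176 RPKM in R4 and 80.6 to 160 RPKM in R7. Spermatid genes were thus divided, and the R4 labels of mice 286 and 648 are not shown to be wrong. The tests below that use the 3 sorted libraries are given with and without them.

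All 10 genes were found in the annotation (GENCODE M21, GRCm38), and 9 had values above 0. *Sox9* lies on chromosome 11 (112782224 to 112787760, plus strand, 3 exons), *Gata4* on chromosome 14 (63198922 to 63271692, minus) and *Wt1* on chromosome 2 (105126529 to 105173616, plus). *Inha* lies on chromosome 1 (75507077 to 75510366, plus), *Amh* on chromosome 10 (80805243 to 80807648, plus) and *Fshr* on chromosome 17 (88984952 to 89200675, minus). *Cldn11* lies on chromosome 3 (31149920 to 31164324, plus), and *Dhh* (98891152 to 98898540, minus) and *Gdnf* (7810846 to 7837575, plus) both lie on chromosome 15. The table holds 6 transcripts of *Gata4*, 8 of *Wt1*, 2 of *Rhox5* and 1 of each of the others. The deposited values appear to count a read once for every transcript it overlaps, since low values fall on whole reads outside mouse 613. The sums for *Gata4* and *Wt1* are then larger than a level per gene. For this reason levels are compared between genes only on the longest coding transcript. *Dhh* shares 546 of its 4399 exonic bases with *Rhebl1* on the same strand, and its span overlaps an antisense gene, *Gm49442*, so its reads are not all certain to be its own.

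The promoter table, from RefSeq on GRCm38.p6, holds 6 of the 10 genes. The windows of *Cldn11*, *Dhh* and *Fshr* are shown because their last base is the one before the first base of the transcript measured here, and because these genes differ in how they were distributed over the gates. Each line gives the 250 bases before the transcript, 5′ to 3′ on the strand of the gene, with matches to the motifs in capitals. The letters searched, on both strands, were GGGCGG (the GC box, in 32.7% of all 32851 windows of this length), CCAAT (33.8%), the E box CACGTG (6.02%), the SOX word AACAAT (9.42%), the CRE TGACGTCA (1.55%) and the GATA word GATAA (22.6%). No match shown overlaps another.
Cldn11, chr3:31149670-31149919, plus: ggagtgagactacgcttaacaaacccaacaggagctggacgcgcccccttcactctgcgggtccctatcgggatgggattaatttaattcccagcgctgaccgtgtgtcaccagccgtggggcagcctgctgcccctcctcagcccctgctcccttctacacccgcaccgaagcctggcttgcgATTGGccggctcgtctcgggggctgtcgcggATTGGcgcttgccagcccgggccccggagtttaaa
Dhh, chr15:98898541-98898790, minus: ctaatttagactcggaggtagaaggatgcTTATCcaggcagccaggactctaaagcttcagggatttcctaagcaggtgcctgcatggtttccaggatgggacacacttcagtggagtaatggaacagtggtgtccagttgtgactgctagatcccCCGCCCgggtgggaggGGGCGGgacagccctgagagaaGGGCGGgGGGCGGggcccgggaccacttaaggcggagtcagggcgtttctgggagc
Fshr, chr17:89200676-89200925, minus: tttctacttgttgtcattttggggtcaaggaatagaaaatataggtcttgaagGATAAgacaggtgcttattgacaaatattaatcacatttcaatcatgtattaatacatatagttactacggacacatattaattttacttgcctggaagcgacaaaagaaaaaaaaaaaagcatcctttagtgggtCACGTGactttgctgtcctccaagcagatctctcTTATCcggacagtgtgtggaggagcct
*Cldn11* held 2 CCAAT words, both on the other strand. *Dhh* held 4 GC boxes and 1 GATA word, and *Fshr* 1 E box and 2 GATA words. The SOX and CRE words as spelled here were in none of the 3 windows.

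*Sox9*, the gene that starts Sertoli cell fate, was read in all 26 testis libraries outside mouse 613. In whole testis it was 2.20 RPKM in wildtype mouse 178 and 4.32 RPKM in wildtype mouse 648. The knockout testes held 2.12 RPKM (mouse 214), 6.89 RPKM (mouse 269), 1.55 RPKM (mouse 273), 4.60 RPKM (mouse 286) and 20.7 RPKM (mouse 308). In R5 it was 2.18 and 3.92 RPKM in wildtype mice 178 and 648 and 2.32 and 1.94 RPKM in knockout mice 286 and 544. The R5 gate therefore overlapped with whole testis, and mouse 308 stood above every other library. In R7 it was 0.127, 1.02, 0.096, 0.191 and 0.190 RPKM in mice 178, 648, 544, 550 and 614, the second of these lying above the others. In R6 it was 1.72, 1.67, 3.45, 0.462 and 0.413 RPKM in mice 178, 648, 286, 544 and 550. In R4 it was 0.368, 0.183, 0.521, 1.64 and 0.155 RPKM in mice 178, 351, 648, 286 and 544. The order of the medians was whole testis (4.32 RPKM), R5 (2.25), R6 (1.67), R4 (0.368) and R7 (0.190), and neighbouring types overlapped at each step.

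The other transcription factor genes had the same order of gates. *Wt1*, which encodes a zinc finger protein needed to form the gonad and to keep Sertoli cells, had median sums of 74.0 RPKM in whole testis, 44.9 in R5, 35.6 in R6, 5.36 in R4 and 3.76 in R7. *Gata4*, a zinc finger factor that also serves Leydig cells, had median sums of 10.8 RPKM in whole testis, 11.8 in R5, 7.28 in R6, 1.24 in R4 and 0.787 in R7. Its highest sorted library was R5 of mouse 648 at 25.7 RPKM, 299.5% of the whole testis of that mouse at 8.58 RPKM, whereas *Sox9* in the same R5 library was 90.7% of its whole testis. On the longest transcript, the median in whole testis was 7.24 RPKM for *Wt1* and 2.44 RPKM for *Gata4*, against 4.32 RPKM for *Sox9*.

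*Cldn11*, the claudin of the blood-testis barrier, was the member with the highest longest-transcript level in whole testis (median 16.4 RPKM, 7.03 to 49.8). It was nearly level over the R5 libraries, at 9.67 RPKM in mouse 178, 9.65 in mouse 648, 9.30 in mouse 286 and 9.74 in mouse 544. In R7 it ran from 0.714 to 2.67 RPKM and in R4 from 0.522 to 3.97 RPKM, so that every R5 library lay above every library of those gates. The R6 libraries spread from 1.64 to 12.8 RPKM, and those of mice 178 and 286 exceeded R5.

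*Inha* encodes the alpha subunit of inhibin, the hormone by which Sertoli cells lower follicle-stimulating hormone. It was 6.86 and 5.53 RPKM in the wildtype whole testes and 9.57 to 51.2 RPKM in the knockout ones. In R5 it was 8.34, 8.32, 6.14 and 9.42 RPKM in mice 178, 648, 286 and 544, and in R7 0.582 to 1.68 RPKM. R6 held 2.65 to 15.1 RPKM and R4 0.618 to 5.70 RPKM. R5 and R7 did not overlap, and the R6 library of mouse 286 again stood highest of the sorted libraries.

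The members that were low in testis were *Amh*, *Fshr* and *Gdnf*. *Amh*, the hormone that removes the Müllerian duct in the male fetus and falls at puberty, was 0.180 to 1.77 RPKM in whole testis (10 to 143 reads) and at most 0.693 RPKM in a sorted library. *Fshr*, the receptor for follicle-stimulating hormone, was 0.146 to 1.61 RPKM in whole testis (16 to 185 reads), and it was listed at 0 in the R7 libraries of mice 178 and 544. *Gdnf*, the ligand that maintains spermatogonial stem cells, never passed 0.153 RPKM, with 2 to 19 reads in a whole testis, and was at 0 in 3 of 26 libraries. At this depth its distribution over the gates was not resolvable. *Rhox5*, an androgen-dependent homeobox gene on the X chromosome, was listed at 0 in all libraries but that of mouse 613, where it was 0.453 RPKM. One of its 2 coding transcripts has no value in the other 27 libraries, so the zeros describe 1 transcript, and the level of the gene was not measured here.

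*Dhh*, the hedgehog ligand by which Sertoli cells act on Leydig and peritubular cells, was distributed more evenly. It was 0.915 to 4.51 RPKM in whole testis, 0.610 to 1.25 in R5, 0.763 to 2.06 in R6, 0.311 to 0.838 in R7 and 0.231 to 0.887 in R4. Its highest library was 19.5 times its lowest over the 26 testis libraries, against 216 times for *Sox9*, 135 for *Wt1*, 95.4 for *Cldn11*, 87.9 for *Inha* and 76.3 for *Gata4*. In mouse 178, R7 and R4 held 61.3% and 96.9% of the *Dhh* level of the whole testis, where *Sox9* held 5.77% and 16.7%. In mouse 648 the shares were 57.3% and 34.4% for *Dhh* and 23.6% and 12.1% for *Sox9*, while in R4 of mouse 286 they were alike at 35.4% and 35.6%. *Rhebl1*, with which it shares exonic bases, was 0 to 0.998 RPKM in R7 and 0.016 to 1.70 RPKM in R4, and its part in the *Dhh* values was not tested. The log2 values of *Dhh* and *Rhebl1* correlated with r = 0.249 over 26 libraries, against 0.857 for *Dhh* with *Sox9*. An r over all libraries does not give the part of *Rhebl1* in the *Dhh* reads of a single gate.

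**Figure D1:**
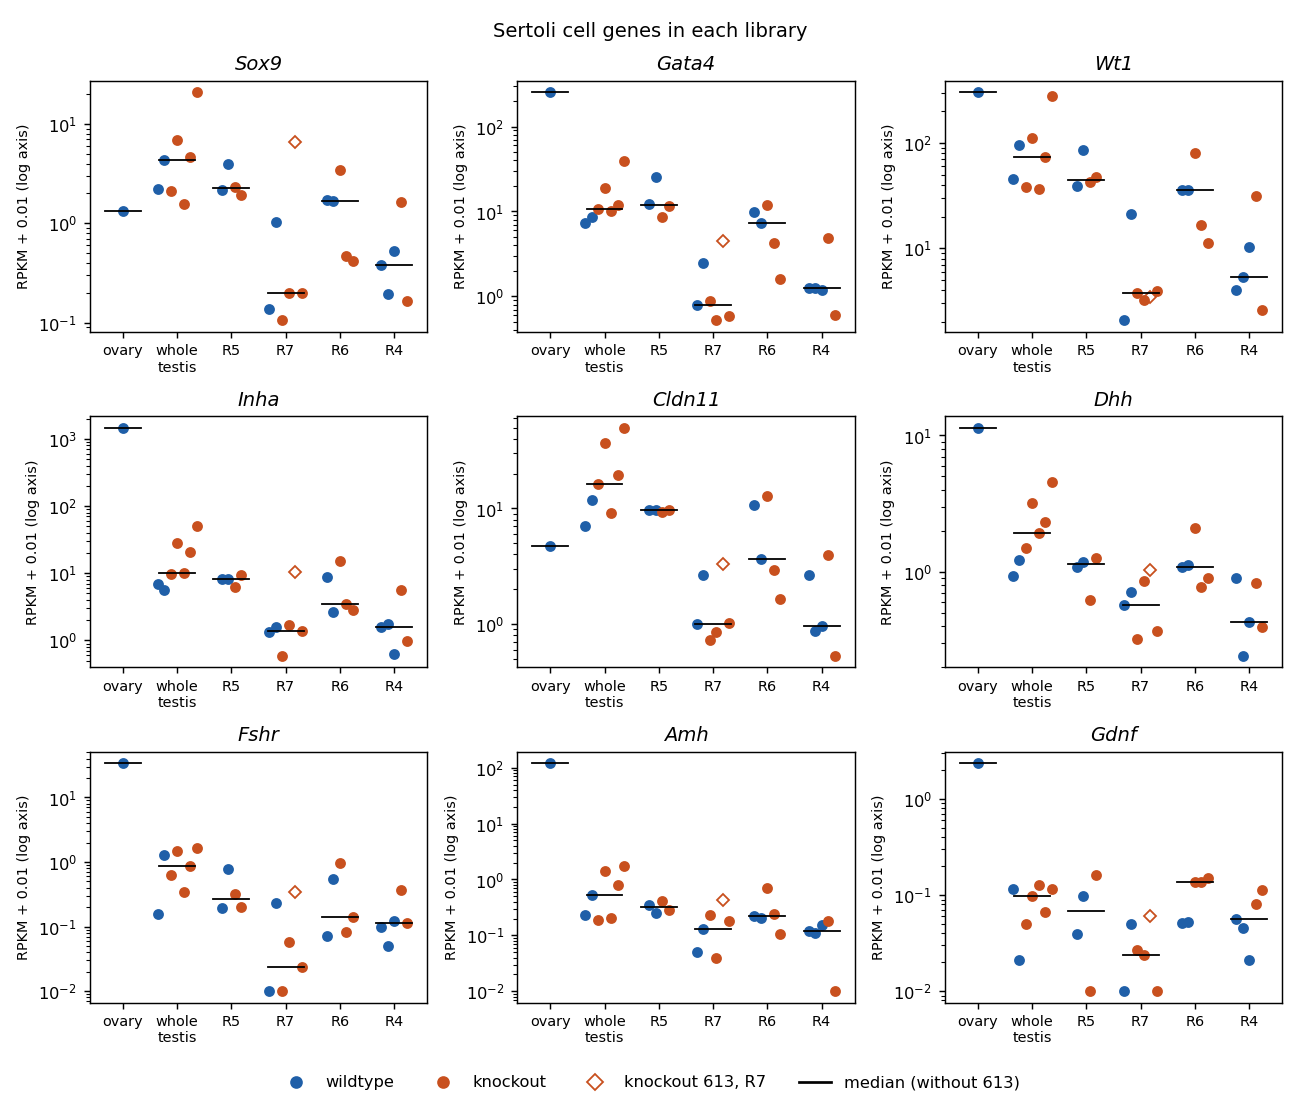
RPKM summed per gene plus 0.01 (log axis) in each library, by type of sample, for 9 members, with points for libraries, colours for genotype, a line at the median and an open diamond for the R7 library of mouse 613. *Sox9*, *Gata4*, *Wt1*, *Inha* and *Cldn11* are low in R7 and R4, and *Dhh* spans the narrowest range of the 6 genes in the upper rows.

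Whether the germ cell gates differ in Sertoli cell genes was tested with limma on log2(RPKM + 0.1) over 19 sorted libraries, comparing R5 with the mean of R7, R6 and R4. On this scale a difference understates the change of low genes. Of the 8 members that passed the filter on low values (a mean of 0.1 RPKM, which *Rhox5* and *Gdnf* did not reach), 5 were higher in R5 and none was lower. Over all 22141 genes tested, 27.5% were called higher in R5, and the median difference was 0.15, against 1.91 over the 8 members. *Gata4* rose by 2.62 ± 0.52 (log2 difference ± SE, adjusted p = 0.00116), *Wt1* by 2.29 ± 0.64 (adjusted p = 0.00972) and *Cldn11* by 2.18 ± 0.55 (adjusted p = 0.00525). *Sox9* rose by 2.02 ± 0.57 (adjusted p = 0.0106) and *Inha* by 1.79 ± 0.52 (adjusted p = 0.0119). *Fshr* (0.89 ± 0.51, adjusted p = 0.168), *Amh* (0.81 ± 0.39, adjusted p = 0.103) and *Dhh* (0.50 ± 0.40, adjusted p = 0.325) did not pass. Without the 3 libraries whose *Prm1* went against their labels, 5 members passed (30.2% of all genes were then called higher), with 2.36 for *Sox9*. Without mouse 648, 2 passed (*Gata4* and *Wt1*), and without mouse 178, 3 did (these and *Cldn11*). On quantile-normalized values 4794 genes were called higher and 4934 lower in R5, against 6088 and 3435 as deposited, and 4 members passed, *Sox9* having 1.46 ± 0.60 (adjusted p = 0.0585).

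The difference was not shared by all mice. Within mice, R5 minus the mean of the other gates was 1.98, 1.91 and 2.75 for *Sox9* in mice 178, 648 and 544, and -0.04 in mouse 286. For *Inha* it was 1.62, 2.50 and 2.79 in the first 3 and -0.59 in mouse 286, and for *Wt1* 2.51, 2.10 and 3.08 against -0.24. *Gata4* (0.15) and *Cldn11* (0.37) were above 0 in mouse 286 as well. In an exact permutation test that exchanged the gate within mice (192 arrangements, two-sided, smallest p 0.00521), the raw p was 0.0156 for *Gata4*, 0.0208 for *Sox9*, 0.0312 for *Wt1* and *Cldn11*, 0.0521 for *Inha*, 0.151 for *Amh*, 0.156 for *Fshr*, 0.427 for *Dhh* and 0.922 for *Gdnf*. Mouse 286 has no R7 library and its R4 library lacked *Prm1*. Without the 3 libraries, mice 178, 648 and 286 were left, with 1.98, 1.51 and -0.55 for *Sox9*, 2.43, 2.56 and -0.50 for *Gata4* and 1.62, 1.6 and -0.46 for *Cldn11*. All 8 tested members were then below 0 in mouse 286, and no exact p was under 0.25 (24 arrangements, smallest p 0.0417). In that mouse R5 was then set against R6 alone, while R7 stayed among the other gates of mice 178 and 648. The values of these mice are therefore not of the same contrast.

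**Figure D2:**
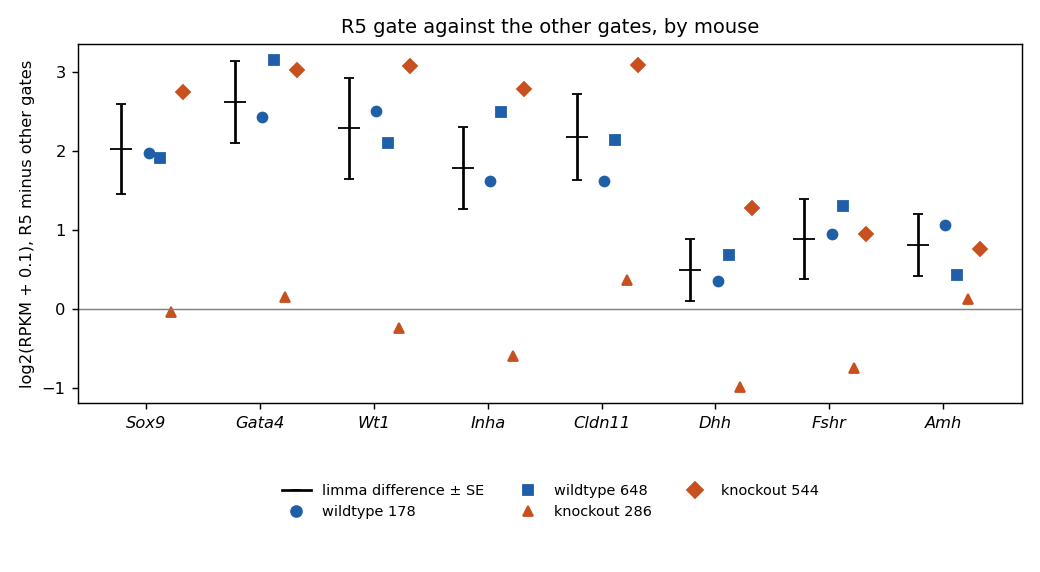
Log2(RPKM + 0.1) in R5 minus the mean of the other gates for 8 members, as the limma difference with its SE (black, 19 libraries) and as the value within each mouse with an R5 library. Mouse 286, which has no R7 library, sits at -0.99 to 0.37, below mice 178, 648 and 544 for each of the 8 genes.

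Gates were also compared in pairs within the same fit. R5 exceeded R7 in the same 5 members, from 2.57 ± 0.62 for *Inha* (adjusted p = 0.00505) to 3.65 ± 0.63 for *Gata4* (adjusted p = 0.000776), where 23.1% of all genes were called higher. R6 exceeded R7 in 2 of 8, *Gata4* (2.55 ± 0.60, adjusted p = 0.0227) and *Wt1* (2.58 ± 0.73, adjusted p = 0.0441), against 6.98% of all genes. R5 exceeded R6 in 0 of 8 by limma (15.4% of all genes), with differences of -0.14 (*Dhh*) to 1.11 (*Gata4*) and 0 at an unadjusted p under 0.05. No member was called between R4 and R7 in either direction, where 32.5% of all genes were called and *Dhh* was -0.07 ± 0.45 (adjusted p = 0.917). Without the 3 libraries, R5 exceeded R7 in 5 members and R6 in 0, and 0 were called between R4 and R7. R6 then exceeded R7 in 5 of 8, *Sox9* (1.91 ± 0.61, adjusted p = 0.045), *Inha* (1.93 ± 0.52, adjusted p = 0.0225) and *Cldn11* (1.99 ± 0.57, adjusted p = 0.0296) being added, where 14.5% of all genes were called higher. None of the 3 is an R6 or R7 library, so they enter that pair through the estimate of the spread.

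Markers of other somatic cells also had their highest median sums among the gates in R5 or R6. Of the macrophage list, 5 of 6 genes were called higher in R5, of peritubular and stromal cells 4 of 6 and of Leydig cells 2 of 6, against 27.5% of all genes. Without the 3 libraries of discordant *Prm1* the counts were 4, 5 and 1. Their summed levels in R5 ran from 8.61 to 60.3 RPKM, 9.59 to 128 RPKM and 12.6 to 332 RPKM, and in R7 from 1.54 to 3.02, 2.28 to 5.19 and 3.41 to 7.89 RPKM. The upper end in R5 was mouse 648 for each list, whose *Cyp17a1* was 160 RPKM and *Insl3* 93.3 RPKM. In R6 the sums were 6.76 to 15.3 RPKM for macrophages, 4.71 to 61.0 for peritubular and stromal cells and 15.8 to 74.4 for Leydig cells. Their part in the members' levels was not tested, and fewer somatic cells in a gate cannot be told apart from less RNA per cell. Of the spermatogonial list 7 of 8 genes were called higher in R5, with summed levels of 294 to 650 RPKM there and 28.1 to 92.9 RPKM in R6.

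Other Sertoli cell genes were read from a list of 24. Of the 23 tested, 19 were called higher in R5 (against 27.5% of all genes) and none lower, with a median difference of 1.93. Leaving out the 3 libraries, 19 were called as well. The highest in whole testis were *Clu*, the secreted chaperone clusterin (2.20 ± 0.57, adjusted p = 0.00612), *Espn*, an actin bundling protein of the ectoplasmic specialisation (0.78 ± 0.43, adjusted p = 0.153), *Cst12*, a cystatin (1.88 ± 0.49, adjusted p = 0.00686), and *Vim*, vimentin (2.37 ± 0.58, adjusted p = 0.00429). *Clu* had medians of 679 RPKM in whole testis, 441 in R5, 226 in R6, 53.8 in R4 and 30.8 in R7. Among the genes not called, *Cdh2* had a difference of -0.70 ± 0.61 (adjusted p = 0.366). Against R7, R6 was higher in 8 of the 23, where 6.98% of all genes were, and in 16 without the 3 libraries (14.5%).

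The genes that send to or receive from these ligands were read from a list of 13. Of these, 7 were called higher in R5 and 1 lower, where 27.5% of all genes were called higher. Without the 3 libraries 8 were called higher and 1 lower, against 30.2% of all genes called higher. *Ret*, the receptor for *Gdnf*, was higher in R5 (3.33 ± 0.56, adjusted p = 0.000385), as was its partner *Gfra1* (1.60 ± 0.46, adjusted p = 0.0112), both being spermatogonial genes. The hedgehog receptor gene *Ptch1* rose by 3.11 ± 0.63 (adjusted p = 0.00126). *Amhr2*, the receptor for *Amh*, had a difference of 1.62 ± 0.68 (adjusted p = 0.065) and a median of 45.0 RPKM in whole testis. *Kit*, the receptor for the Sertoli cell ligand *Kitl*, rose by 4.79 ± 0.67 (adjusted p = 0.000131). *Tgfbr3*, a co-receptor for inhibin, had a difference of 1.29 ± 0.55 (adjusted p = 0.0688).

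Whether these genes are lost when germ cells are sorted was read from whole testis against the mean of the 4 gates over 26 libraries. All 8 tested members had positive differences, from 1.03 ± 0.32 for *Dhh* to 2.23 ± 0.54 for *Wt1*, and none passed the threshold. The nearest was *Cldn11* (2.20 ± 0.45, adjusted p = 0.0806), and all 8 had an unadjusted p under 0.05, as had 1544 of 22300 genes. Of all 22300 genes tested, 0.0224% (5 genes) were called higher, so the threshold was rarely passed by any gene. With mouse as a random block, for the pairing of libraries by animal, *Cldn11* was called (2.09 ± 0.42, adjusted p = 0.0396), as were 43 genes in all. Without mouse 286, 5 members were called, *Cldn11* at 2.49 and *Sox9* at 2.41, where 203 of 22249 genes were called higher. Without mouse 273, 1 was called (38 genes in all). Without the 3 libraries of discordant *Prm1* 3 were (*Cldn11*, *Gata4* and *Wt1*), against 0.246% of all genes called higher.

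Within the mice that had both, whole testis exceeded the mean of the gates by 1.5, 1.57 and 0.93 for *Sox9* in mice 178, 648 and 286. The exact permutation p was 0.06 for *Sox9* and 0.07 for *Amh* and *Fshr*, and higher for the other members (100 arrangements, smallest p 0.01). With the 3 libraries left out it was 0.1 for *Sox9*, with 1.5, 1.15 and 0.68 in these mice, and for *Amh*, and higher for the others (60 arrangements, smallest p 0.0167). The R5 gate alone did not fall short of whole testis by a called amount in any of the 8 members, with differences of -0.24 (*Gata4*) to 0.85 (*Fshr*), where 15.5% of all genes were called in either direction, and 0 members were called without the 3 libraries. In mouse 178, R5 held 99.1% of the *Sox9* of the whole testis, 84.8% of *Wt1*, 122% of *Inha* and 137% of *Cldn11*. R7 of the same mouse held 5.77%, 4.52%, 19% and 14%. In mouse 648, R5 held 90.7%, 90.1%, 150.4% and 81.7% of these genes, and in mouse 286 50.5%, 57.8%, 29.8% and 47.3%.

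The members were also divided by whether they followed *Sox9* from whole testis to the gates. For each gene the log2 ratio to *Sox9* in the gates minus that in the whole testis was taken within mice 178, 648 and 286. A gene followed *Sox9* if the mean lay between -1 and 1 and rose against it if the value was over 1 in each mouse. *Cldn11* (mean 0.01), *Inha* (0.14), *Wt1* (-0.16), *Fshr* (0.36), *Gata4* (0.51), *Amh* (0.52) and *Dhh* (0.76) followed, and *Gdnf* (1.23) did neither. The values in mice 178, 648 and 286 were 1.43, 1.01 and -0.17 for *Dhh* and 0.81, 1.93 and 0.94 for *Gdnf*. No exact permutation p was under 0.05 for these 8 genes (0.08 for *Gdnf*, 0.21 for *Dhh*, 0.13 for *Gata4*, raw p of 8 tests). With the R5 libraries left out, the mean for *Dhh* was 1.10 (1.84, 1.31 and 0.15, exact p = 0.0208 of 48 arrangements, the smallest possible), so mouse 286 kept it from the rule, and *Gdnf* rose in each mouse at 1.61. *Gdnf* rested on 0 to 21 reads per library in these mice, where the pseudocount sets much of the ratio. By this rule none of the 8 genes rose against *Sox9* with all gates included, nor without the 3 libraries of discordant *Prm1*, where the means ran from -0.12 (*Wt1*) to 1.02 (*Gdnf*) with 0.67 for *Dhh*. A gene that sorting left unchanged would score 1.5, 1.57 and 0.93 in mice 178, 648 and 286, the fall of *Sox9*. Mouse 286 would keep it from the rule, so the count of 0 does not tell genes read in germ cells from the rest.

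**Figure D3:**
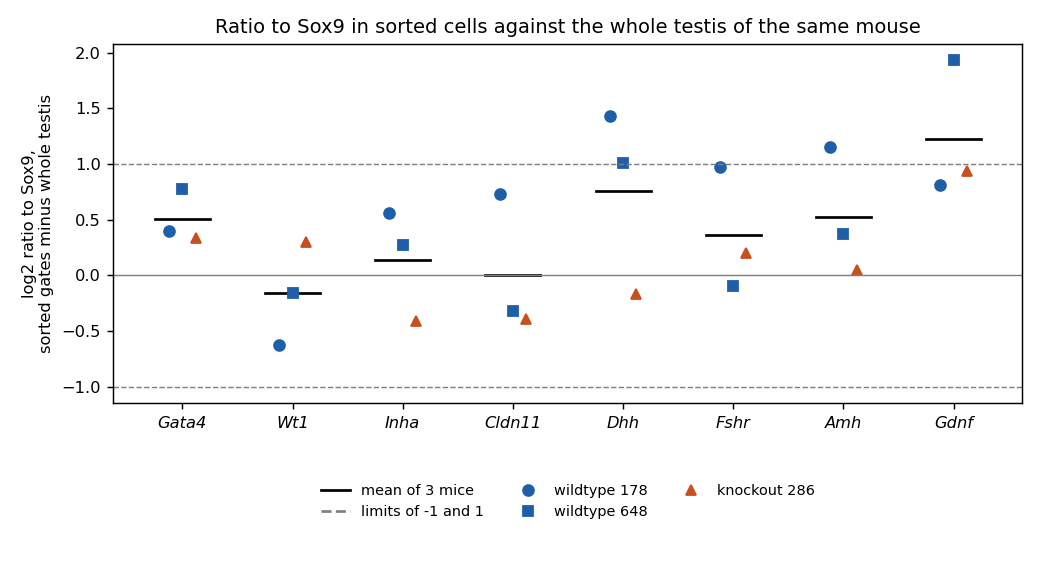
Log2 ratio of each gene to *Sox9* in the sorted gates minus that in the whole testis of the same mouse, for 3 mice, with black lines at the mean and dashed lines at the limits of -1 and 1. *Dhh* lies above 1 in mice 178 and 648 and at -0.17 in mouse 286, and *Gdnf* alone has a mean over 1.

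Across the 26 testis libraries, *Sox9*, *Gata4*, *Wt1*, *Inha* and *Cldn11* had pairwise Pearson r of 0.886 to 0.978 on the log2 scale (10 pairs). The points share mice and gates, so the r describe these libraries only. *Dhh* was nearest to *Inha* (0.897), while *Gdnf* had r of 0.219 to 0.478 with the 8 other members read. Of the 14216 genes whose mean in whole testis reached 1 RPKM, those most like *Sox9* were *Wipf3* (0.981), *Wt1* (0.978), *Aard* (0.975), *Tpbgl* (0.974), *Gatm* (0.973), *Basp1* (0.971), *Gm14569* (0.969), *Rassf2* (0.967), *Mro* (0.967) and *Peg10* (0.963). Nearest to *Gata4* were *St8sia2* (0.979), *Sparc* (0.978) and *Clu* (0.977), and to *Wt1* *Wipf3* (0.991), *Sox9* and *Rassf2* (0.977). *Tmem114* (0.975), *Ldhb* (0.974) and *Sfxn3* (0.973) were nearest to *Inha*, and *Reep1* (0.977), *Inhbb* (0.973) and *Ldhb* (0.971) to *Cldn11*. *Shc2* (0.917), *Inha* and *Map3k21* (0.896) were nearest to *Dhh*. Nearest to *Amh* were *Csdc2* (0.913), *Rgs17* (0.903) and *Caskin1* (0.896), to *Fshr* *Plppr4* (0.926), *Aard* (0.907) and *Cpe* (0.906), and to *Gdnf* *Syne3* (0.770), *Hdc* (0.760) and *Fam57b* (0.736).

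The knockout testes were compared with the wildtype ones to see whether Sertoli cell genes depend on *Csmd1*. No member passed in whole testis (0 of 8 by limma, against 0.0% of 22776 genes). One member, *Inha* (1.65 ± 0.68, adjusted p = 0.417), had an unadjusted p under 0.05, as had 2493 genes. The differences were 0.27 (*Wt1*) to 1.65, and the median of all genes was itself 0.39. *Gata4*, *Inha* and *Dhh* were higher in each of the 5 knockout testes than in both wildtype testes, 3 of 8 members, where 15.9% of all genes did the same. Their exact permutation p were 0.143, 0.143 and 0.0952 (21 arrangements, smallest p 0.0476). The library of mouse 178 lacked values for the same transcripts as those of the knockout testes, unlike that of mouse 648. The labels do not state which libraries were quantified together. Against the 1 library of mouse 178, the knockout mean was higher by 0.80 (*Wt1*) to 1.96 (*Fshr*) over the 8 members. For *Inha* (1.5), *Gata4* (1.10) and *Dhh* (1.35) a positive value followed from the way they were picked out above.

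Some of the members differed among testes along with *Prm1*. In the 4 testes with *Prm1* under 1.2 RPKM, *Sox9* was 4.32 to 20.7 RPKM and *Wt1* 74.0 to 279 RPKM, and in the other 3 they were 1.55 to 2.20 and 36.5 to 45.6 RPKM. The genotypes were spread over both, with 1 wildtype testis in each. *Amh* (0.519 to 1.77 against 0.180 to 0.221 RPKM) and *Fshr* (0.867 to 1.61 against 0.146 to 0.611 RPKM) also did not overlap. *Gata4*, *Inha*, *Cldn11* and *Dhh* did, the testis of mouse 648 lying below that of mouse 214 in all 4 (8.58 against 10.8, 5.53 against 9.57, 11.8 against 16.4 and 1.22 against 1.49 RPKM). The share of all genes that separated these testes in the same way is not given here, so the split is not shown to be particular to the members. The ages of these testes are not all known, and the part of age or germ cell content in these differences, those by genotype included, was not tested.

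**Figure D4:**
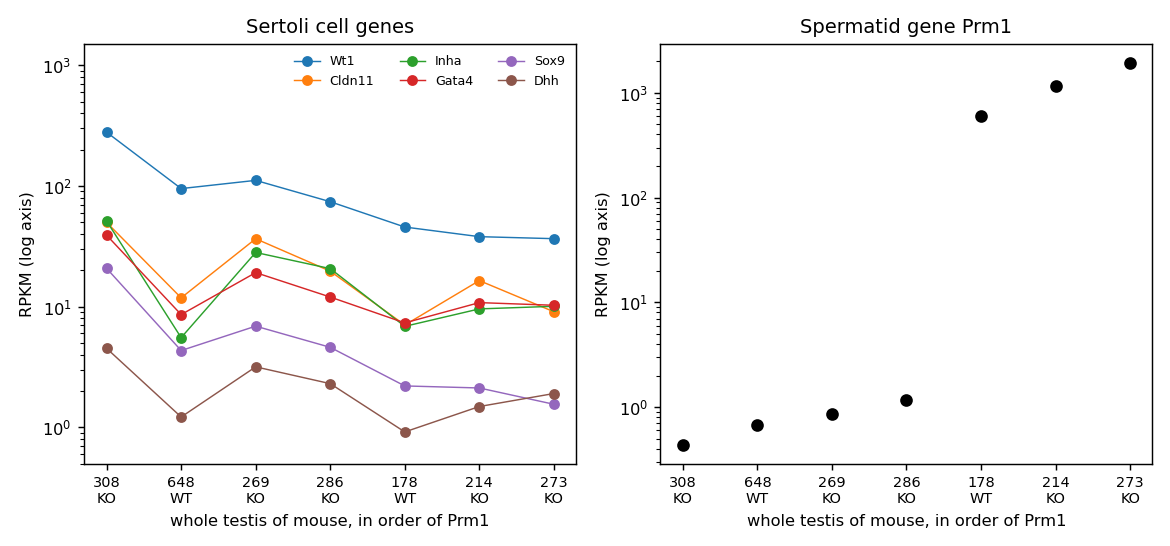
RPKM (log axes) of 6 members (left) and of the spermatid gene *Prm1* (right) in the 7 whole testes, ordered by *Prm1*, with mouse and genotype on the horizontal axis. *Sox9* and *Wt1* are lowest in the 3 testes with *Prm1* of at least 603 RPKM, and mouse 308 is highest in all 6 genes.

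In sorted cells none of the 8 members was called by genotype either, against 0.0135% of 22141 genes called (3 genes). The mean differences over gates ran from -0.58 ± 0.43 (*Gata4*, adjusted p = 0.605) to 0.15 ± 0.43 (*Inha*, adjusted p = 0.901), and none had an unadjusted p under 0.05. Exact permutation of mice gave raw p of 0.314 to 0.943 for the 8 (35 arrangements, smallest p 0.0286). Further comparisons were made among libraries that lacked values for the same transcripts. Mouse 286 exceeded mice 178 and 351 in *Sox9* by 1.10 over R5, R6 and R4, while R7 of mouse 614 differed from that of mouse 648 by -1.95. The latter compares 1 library with 1. In both cases the higher mouse was the one with less *Prm1*. It was 0.348 to 2.14 RPKM in mouse 286 against 92.9 to 2579 RPKM, and 0.342 RPKM in mouse 648 against 34.7 RPKM. Genotype and *Prm1* cannot be told apart in these comparisons. The genotype by gate interaction was called for 0 of 8 members and for 0 of all genes (limma, 1750 genes at an unadjusted p under 0.05). Without the 3 libraries 0 members were called by genotype or for the interaction, and 1 member, *Gata4* (-0.996 ± 0.44, adjusted p = 0.65), had an unadjusted p under 0.05 by genotype.

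The single ovary held more of 7 members than any testis library, in values without a replicate check. The share of all genes that were higher in the ovary than in every testis library is not given here, so the count is not shown to be particular to the members. *Inha* was 1457 RPKM, against a mean of 18.9 ± 16.4 RPKM (SD, n = 7) in whole testis, and *Gata4* and *Wt1* were 253 and 302 RPKM as sums. *Amh* was 121 RPKM, *Fshr* 33.9 RPKM, *Dhh* 11.4 RPKM and *Gdnf* 2.35 RPKM, all above their highest testis values of 1.77, 1.61, 4.51 and 0.153 RPKM. *Sox9* (1.34 RPKM) and *Cldn11* (4.69 RPKM) were below the lowest whole testis, at 1.55 and 7.03 RPKM. The granulosa list summed to 958 RPKM in the ovary and to at most 1.39 RPKM in whole testis, and its defining gene *Foxl2* was 5.42 RPKM against at most 0.018 RPKM.

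The R7 library of mouse 613 stood apart from the other 5. *Sox9* was 6.54 RPKM there, 6.42 times the highest of the others, and *Inha* 10.4 RPKM, 6.21 times. *Gata4* was 4.51 RPKM (1.82 times), *Amh* 0.419 (1.90), *Fshr* 0.328 (1.48), *Cldn11* 3.30 (1.24), *Dhh* 1.01 (1.21) and *Gdnf* 0.051 (1.29). *Wt1*, at 3.45 RPKM, lay within the range of the other R7 libraries (2.06 to 21.1 RPKM). The Leydig cell list summed to 86.0 RPKM there, against 3.41 to 7.89 RPKM in the other R7 libraries. Its values do not fall on whole reads and 12787 of its transcripts have no value, so its levels may not be on the scale of the others. With it in the fit, 3 rather than 5 members were called higher in R5, *Sox9* (1.83, adjusted p = 0.0862) and *Inha* (1.66, adjusted p = 0.052) being the ones that no longer passed.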

How the data were processed

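Genotype, tissue, gate and mouse came from the labels. The authors aligned read pairs by TopHat2 to Ensembl transcripts and deposited RPKM per transcript, without replicates pooled. Their tests also used PEER, PoissonSeq and quantile normalization. In 27 columns 93.2 to 94.6% of low values fell on whole reads (within 0.06, 12.0% by chance), which gave the depth. In mouse 613 13.7% did. No count model was fitted.

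Of 94480 transcripts, 90432 matched GENCODE M21 (GRCm38) and were summed per gene, 4 sets of libraries having different transcripts without a value. The 10 members and all lists were chosen with earlier results of these data known. Tests used log2(RPKM + 0.1) with limma 3.58.1 in R 4.3.3 (trend, Benjamini-Hochberg over all genes with a mean of at least 0.1 RPKM), with groups of genotype by type, and exact permutation tests within mice. limma was tested on simulated data. Genes named are the members, up to 4 per list with the highest mean RPKM in whole testis, and the most correlated (10 for *Sox9*, 3 for each other member). *Gfra1*, *Ret*, *Ptch1*, *Cdh2*, *Foxl2*, *Acrv1*, *Acr*, *Dmc1*, *Id4*, *Gm49442* and *Rhebl1* were named beside them after their values were seen. The result of 1 gene of a list is not reported here.

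Libraries of 1 mouse are paired by animal, and their residuals correlated with a median of 0.45 (22 pairs), against -0.08 between mice (135 pairs). Pseudocounts of 0.01 and 1, no filter, quantile normalization, coding transcripts only, the longest coding transcript, mouse as a block, set as a term and each mouse left out were tried. No pair of libraries held identical values.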

Additional observations from a re-analysis of the deposited data

Results flagged for a closer look

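In the R7 gate of the knockout mice, 1 of 4 libraries lay far from the rest of its group in 5 members. The share of all genes that lay apart in this library is not given here, so the count is not shown to be particular to the members. The library of mouse 613 held 6.54 RPKM of *Sox9*, 4.51 RPKM of *Gata4*, 10.4 RPKM of *Inha*, 0.328 RPKM of *Fshr* and 3.30 RPKM of *Cldn11*. *Rhox5*, listed at 0 in every other library, was 0.453 RPKM there. Among the 5 knockout whole testes, *Sox9* in mouse 308 (20.7 RPKM) lay far from the other 4 (1.55 to 6.89 RPKM). Of 18 groups of values examined in this way, chance alone would mark about 1 in 20.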

How the results depend on the processing

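Counts of members called are given here. For R5 against the other gates the count was 5, and it ran from 2 to 5 with each mouse left out, 2 without mouse 648 and 3 without mouse 178. It was 3 with the library of mouse 613 included, and 4 on quantile-normalized values. For whole testis against sorted cells it was 0, and 0 to 5 with each mouse left out (5 without mouse 286, 1 without mouse 273). It was 1 with mouse as a random block for the pairing by animal, and 3 without the 3 libraries of discordant *Prm1*, an alternative chosen after seeing the data. The block changed no other call of a member. The number rising against *Sox9* was 0, and 1 without R5 (*Gdnf*), 1 without R5 and R6, which was also added later, and 0 to 1 with each mouse left out (*Dhh* without mouse 286). The counts for genotype were 0 under each of the 13 alternatives in whole testis and the 17 in sorted cells. Genes called in all ranged from 4944 to 12386 for R5 (9523 as reported), 0 to 204 for whole testis against sorted cells (5), 0 to 159 for genotype in whole testis (0) and 1 to 2208 in sorted cells (3). The cause was not tested. Low read numbers of *Amh*, *Fshr* and *Gdnf* limit what their values can resolve.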
